A study of Mus musculus with 2 samples.

Results

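An intron of the mouse gene Sfmbt2 holds a dense array of microRNA (miRNA) genes of the Mir297, Mir466, Mir467 and Mir669 families. The genes described here are all rows of the count tables whose Ensembl identifier maps to a miRNA gene within the Sfmbt2 locus on chromosome 2 (mm10), whatever their count, and there are 107 of them among 1973 miRNA genes in all. They were chosen by position and not by level. Small RNA was sequenced from neural tubes taken from mouse pups at postnatal day 0 (strain B6NCrl, sex not collected), with 1 library from a single tube of pup 1 and 1 from pup 2 of the same dam. These littermates form 1 group, with no treatment or genetic change named in the labels, so no conditions could be compared. Every error below is the SD over the 2 libraries (n = 2).

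Sfmbt2 encodes a Polycomb-group protein, a member of a class of chromatin proteins that keep genes repressed. In mouse it is imprinted and read from the paternal copy in early embryos and in the placenta, and its intronic miRNAs have been studied mostly in trophoblast, the cells that form the placenta, and in pluripotent cells. A miRNA gene is transcribed into a hairpin precursor, which is trimmed to a short mature RNA that guides repression of messenger RNAs. Targets are recognised mainly through the seed, which is bases 2 to 8 of the mature RNA. The genes of this array are thought to have arisen by repeated duplication, and many are near or exact copies of each other, which bears on every count below, because a read that fitted more than 1 place was not assigned to a gene.

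No mature sequence of any of the 107 array genes was found in the sequence source used here (RefSeq, GRCm38.p6), so none is shown. It held mature miRNAs from 8 of the 10 genes of the same families that lie outside the locus. These are not sequences of the array. All 8 are shown so that they can be set beside the precursors within the array. Seeds are in capitals.
mmu-miR-467f (chr11:69635419-69635439, minus strand): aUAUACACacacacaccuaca
mmu-miR-467g (chr5:34732872-34732892, minus strand): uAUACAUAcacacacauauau
mmu-miR-467h (chr9:115381898-115381919, plus strand): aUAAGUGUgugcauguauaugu
mmu-miR-669n (chr3:115979905-115979924, plus strand): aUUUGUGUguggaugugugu
mmu-miR-466i-3p (chr13:17747552-17747573, plus strand): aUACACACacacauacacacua
mmu-miR-466j (chr10:60960802-60960824, plus strand): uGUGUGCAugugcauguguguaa
mmu-miR-466k (chr3:85467396-85467418, plus strand): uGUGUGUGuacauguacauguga
mmu-miR-466q (chr3:28419988-28420007, plus strand): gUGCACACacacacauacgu
Much of each sequence is a repeat of AC or GU. The miR-467f sequence matched at 20 of its 21 bases in 12 array precursors, among them Mir467d, and miR-467g matched at 20 of 21 bases in Mir669l and Mir467e. The miR-467h sequence matched at 21 of 22 bases in Mir467c and Mir467e, and miR-669n at 19 of 20 bases in Mir669c. Mir467d does not hold the letters of the miR-467f seed, nor Mir467c those of the miR-467h seed or Mir669c those of the miR-669n seed, so in these 3 precursors the mismatch falls in the seed. The miR-466k sequence matched at 22 of 23 bases in 8 array precursors, none of them detected below, and miR-466j at 22 of 23 bases in 10, of which Mir297a-2 was detected. The miR-466i-3p sequence matched at 21 of 22 bases in Mir466f-2, which had no count. The miR-466q sequence was the least alike, matching at most 16 of its 20 bases in any array precursor. These 8 seeds differ from each other. The letters of the miR-467g seed occurred in 66 of the 107 array precursors and those of the miR-467f seed in 27. The letters of the miR-467h seed occurred in 1, Mir467e. A match of letters is a description and does not show that a mature RNA is cut at that place.

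The same repeat ran through the precursors. An 8-base run of TGTGTGTG, or CACACACA on the other strand, was found in 76 of the 107 array precursors (71.0%). Of all 1894 miRNA genes with a position it was found in 219 (11.6%), of which 143 lay outside the array. Within the array 19 of 20 Mir466 genes held it, 12 of 14 Mir467 genes, 14 of 20 Mir669 genes and 31 of 48 genes with only a provisional Gm name. None of the 5 Mir297 genes held it. Among the 3 most abundant genes of the array, Mir467d held the run and Mir467e and Mir467c did not.

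All 107 genes lay on the plus strand, the strand of Sfmbt2, between positions 10465287 and 10518279 of chromosome 2, a stretch of 53.0 kb. Sfmbt2 itself runs from 10370510 to 10595253. Every one of the 107 lay in the same intron (10461473 to 10523944, 62472 bases), numbered 10 or 11 depending on the transcript, and none touched an exon. Another 12 annotated miRNA genes of the locus (Mir466b-1, Mir466c-1, Mir466e and Mir669a-4 to Mir669a-12) were not among the genes counted, so they have no values here. The level of the Sfmbt2 messenger RNA was not analysed here.

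The libraries held 3216453 (pup 1) and 3660693 (pup 2) counts on the own strand of a miRNA gene. Levels are given as CPM, the count scaled to 1000000 own-strand counts of the library. On this scale 1 count was worth 0.311 (pup 1) or 0.273 CPM (pup 2), and the upper limit for a gene with no count, taken as 3 counts, was 0.933 or 0.820 CPM. Reads that fitted several places made up 35.5% ± 0.15 of all reads. The 6 Hox-cluster miRNA genes, which mark the axial level of spinal tissue, were all detected and summed to 341325 and 315635 CPM. Of 7 neuron genes 5 were detected, with 20372 and 23470 CPM, of which Mir137 held 15026.5 and 17125.2 CPM. Markers of other cells were found too. All 3 oligodendrocyte genes (1854 and 2220 CPM) and all 3 red blood cell genes (137 and 168 CPM) were detected. So were the 2 measured immune genes (362 and 423 CPM) and 1 of 4 measured muscle genes (list sum 69.3 and 102 CPM). Of 9 measured genes of pluripotent and trophoblast cells, Mir290a was at 0, and Mir291a, Mir294 and Mir295 had at most 4 counts in a pup. Mir293 had 4 and 13 counts, and the 4 detected were Mir302a to Mir302d. All 9 genes together summed to 51.3 and 99.7 CPM. Mir126a, a marker of endothelium, stood at 27838 and 26007 CPM. Which cells of the tissue the array's reads came from was not tested, and in whole tissue fewer cells of a type and less RNA per cell cannot be told apart.

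The array took 10575 counts in pup 1 and 12359 in pup 2. This was 0.329% of the own-strand counts of pup 1 (exact 95% binomial interval 0.323 to 0.335%) and 0.338% of those of pup 2 (0.332 to 0.344%), or 3332 CPM ± 62.5. The pups' shares differed by 0.04 on the log2 scale. No read was counted on the opposite strand of any of the 107 genes in either pup, whereas the whole tables held 68949 and 81286 opposite-strand counts. This was not particular to the array. Another large miRNA array, that from miR-379 to miR-410 on chromosome 12, also had no opposite-strand count in either pup. Intervals and limits of 0 counts cover counting error only, and no molecular identifiers are stated.

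Few of the genes carried these counts. With detection set at 10 or more counts in each pup, 10 of the 107 genes were detected (9.35%), beside 352 of all 1973 miRNA genes (17.8%) and 342 of the 1866 outside the array (18.3%). The miR-379 to miR-410 array had 29 of 33 genes detected (87.9%) and 7.90% ± 0.12 of the counts. In the Sfmbt2 array 81 genes (75.7%) had no count in either pup, beside 1293 (65.5%) of all genes. The other 16 had between 1 and 5 counts in at least 1 pup without reaching detection.

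Within the array the counts were concentrated in a handful of genes. The most abundant gene held 35.0% of the array's counts in pup 1 and 37.2% in pup 2, the first 3 together held 82.4% and 80.9%, and the first 6 held 98.9% and 98.7%. The 97 genes short of detection together held 15 counts in pup 1 and 25 in pup 2. The map of the array shows these few genes standing far above their neighbours.

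**Figure D1:**
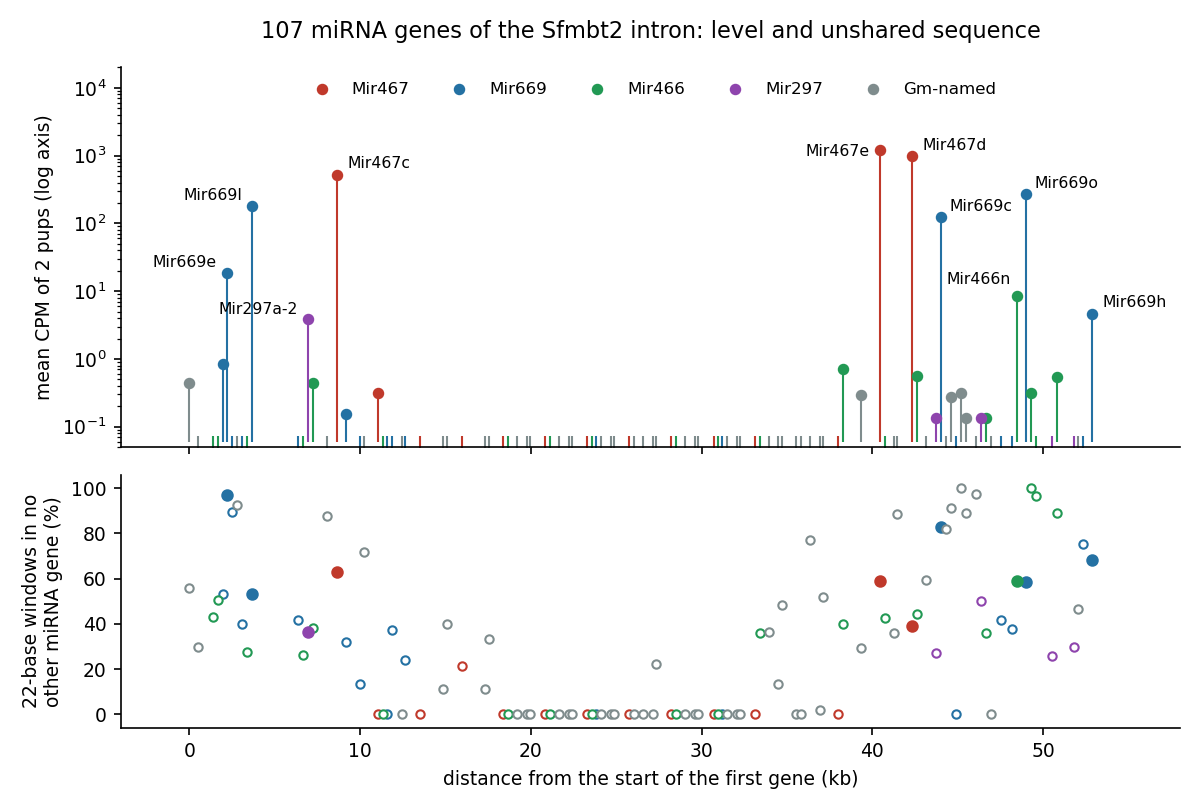
Level and sequence of the 107 genes along the Sfmbt2 intron. The upper panel gives mean CPM of the 2 pups (log axis) against the distance from the start of the first gene (kb), with ticks at the bottom for the 81 genes with no count; the lower panel gives the share of each precursor's 22-base windows that occur in no other annotated miRNA gene, filled for the 10 detected genes. The detected genes sit at both ends of the array, and between Mir467c and Mir467e lies a stretch of 31.7 kb in which most precursors have no window of their own.

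The Mir467 family carried most of the signal. Its 14 genes summed to 2709 CPM in pup 1 and 2731 CPM in pup 2 (2720 ± 15.6), which was 82.4% (exact 95% interval 81.7 to 83.1%) and 80.9% (80.2 to 81.6%) of the array's counts. Nearly all of it came from 3 genes, since 10 of the 14 had no count in either pup.

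Mir467e (ENSMUSG00000076948, chr2:10505721-10505807) was the most abundant gene of the array. It had 3701 counts in pup 1 against 4600 in pup 2, or 1151 and 1257 CPM (1204 ± 74.9), which placed it at rank 88 of all miRNA genes. Its level was higher in pup 2, by 0.13 on the log2 scale (exact 95% counting interval 0.06 to 0.19).

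Mir467d (ENSMUSG00000077021, chr2:10507630-10507714) lies 1822 bases downstream of Mir467e, with 3 other genes of the array between them, all at 0. Its counts were 3261 and 3550, or 1014 and 970 CPM (992 ± 31.2). Its order relative to Mir467e was the same in both pups, with Mir467e 1.13 times as high in pup 1 and 1.30 times in pup 2.

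Mir467c (ENSMUSG00000077049, chr2:10473931-10474027) lies at the other end of the array. It had 1749 counts in pup 1 and 1847 in pup 2, or 544 and 505 CPM (524 ± 27.7). Mir467e stood 2.12 and 2.49 times above it, so Mir467c was the lowest of the 3 genes in both pups.

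The remaining Mir467 genes are copies of Mir467a and Mir467b. Mir467a-1 had 2 counts, both in pup 1, and the other 10 were at 0. With Gm25022, whose precursor is identical to several of them, the Mir467a and Mir467b genes form a regular series of 12 from Mir467a-1 to Mir467a-10, spaced 2413 to 2470 bases apart (median 2451 bases). The precursors of Mir467a-2, Mir467a-4, Mir467a-5, Mir467a-7, Mir467a-8, Mir467a-9 and Gm25022 are identical over their whole length, so a read from any 1 of these 7 fits all of them. Their count of 0 is therefore a count of uniquely placed reads and sets no limit on their level.

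The Mir669 family came second, with 5 of 20 genes detected. The family summed to 562 CPM in pup 1 and 628 CPM in pup 2 (595 ± 46.4), or 17.1% and 18.6% of the array's counts. Its detected members spanned a wide range of levels, from 267 down to 4.65 CPM.

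Mir669o (ENSMUSG00000077086, chr2:10514300-10514395) led the family with 829 counts in pup 1 and 1012 in pup 2, or 258 and 276 CPM (267 ± 13.2). Mir669l (ENSMUSG00000076959, chr2:10468971-10469068), near the start of the array, had 549 and 696 counts, or 171 and 190 CPM (180 ± 13.7). Mir669c (ENSMUSG00000076118, chr2:10509296-10509404) had 365 and 490 counts, or 113 and 134 CPM (124 ± 14.4). For these 3 genes the value of pup 2 was the higher, and no value of one gene overlapped those of another.

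Mir669e (ENSMUSG00000080653, chr2:10467495-10467613) and Mir669h (ENSMUSG00000080594, chr2:10518155-10518279) were far lower. Mir669e had 49 counts in pup 1 and 79 in pup 2, or 15.2 and 21.6 CPM (18.4 ± 4.49). Mir669h, the last gene of the array, had 15 and 17 counts, or 4.66 and 4.64 CPM (4.65 ± 0.014). The step from Mir669c to Mir669e, 6.49-fold on the scale of CPM plus 1, was the widest between successive detected genes. Below detection, Mir669f had 1 and 5 counts and Mir669a-3 had 1 and 0, and the other 13 measured Mir669 genes were at 0.

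The Mir466 family is as numerous as Mir669 but contributed little. Its 20 genes summed to 34 counts in pup 1 and 43 in pup 2, which was 0.322% and 0.348% of the array's counts. Mir466n (ENSMUSG00000077991, chr2:10513741-10513834) was the single detected member, with 28 and 30 counts, or 8.71 and 8.20 CPM (8.45 ± 0.36). Mir466l had 0 and 4 counts, Mir466b-3 had 1 and 4 and Mir466 had 1 and 3, while 13 members were at 0.

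Of the 5 Mir297 genes, Mir297a-2 (ENSMUSG00000076983, chr2:10472254-10472343) was detected. It had 14 counts in pup 1 and 13 in pup 2, or 4.35 and 3.55 CPM (3.95 ± 0.57), the lowest level of the 10 detected genes. Mir297b and Mir297c had 1 count each, both in pup 2. The 48 genes with only a Gm name had 5 counts in each pup in all, none was detected, and 43 of them were at 0.

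**Figure D2:**
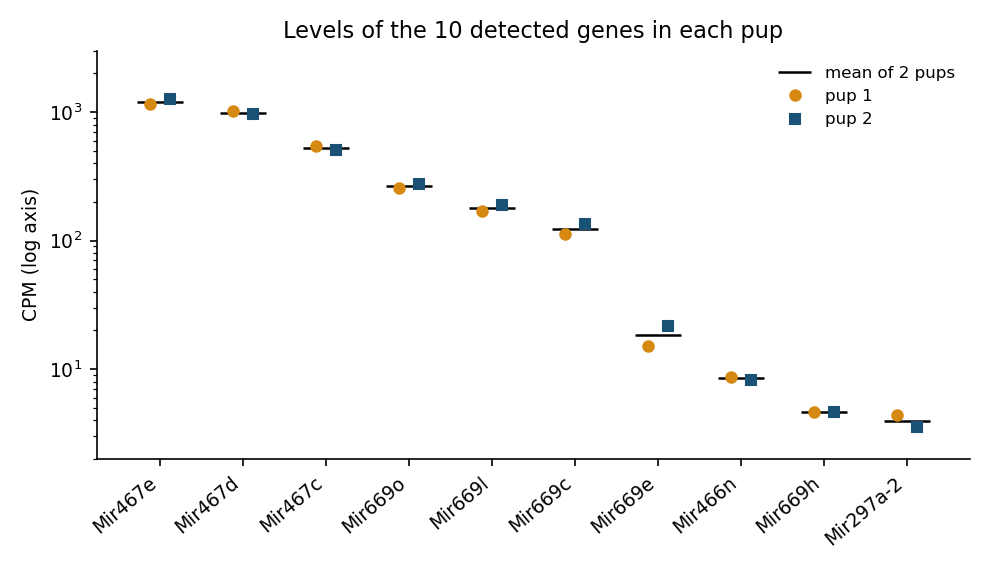
CPM (log axis) of the 10 detected genes in each pup; circles are pup 1, squares pup 2, and bars the mean of the 2. The genes run from Mir467e at 1204 CPM to Mir297a-2 at 3.95 CPM in the same order in both pups.

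The 10 genes ranked in the same order in both pups. Of their 9 successive pairs, 7 differed in level beyond a 95% limit set by the SD of the difference, with the SD pooled over detected genes of like abundance. Those 7 steps on the scale of CPM plus 1 included Mir467d over Mir467c (1.89-fold), Mir669o over Mir669l (1.48-fold) and Mir669l over Mir669c (1.46-fold). The pairs that did not differ beyond this spread were Mir467e over Mir467d (1.21-fold) and Mir669h over Mir297a-2 (1.15-fold). The step from Mir466n to Mir669h (1.67-fold) fell short of the limit when 5 CPM was added in place of 1.

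Scaling to precursor length, which ranged from 85 to 125 bases among the detected genes, changed little. Per 100 precursor bases Mir467e stood at 1383 CPM, Mir467d at 1167 CPM and Mir467c at 540 CPM. The order by this measure differed from that of the unscaled means at 1 place, where Mir297a-2 (4.39 CPM per 100 bases) passed Mir669h (3.72 CPM per 100 bases). The pooled SD reflects the spread between pups alone. It does not cover what acts on both libraries alike, such as the part of a gene's reads that fitted several places.

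How much of each precursor could give uniquely placed reads was measured as the share of its 22-base windows found in no other annotated miRNA gene on either strand (its unshared share). A stretch of 22 bases is about the length of a mature miRNA. Of the 107 precursors, 105 (98.1%) shared such a stretch with another miRNA gene, beside 904 of all 1894 miRNA genes (47.7%) and 799 of the 1787 outside the array (44.7%). The 2 that shared none were Mir466g and Gm22239, each with 2 counts in pup 1 and 0 in pup 2. The genome outside annotated miRNA genes was not searched, so an unshared window may still occur elsewhere.

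Of the 107 genes, 42 (39.3%) had no window of their own. Across all miRNA genes this held for 260 (13.7%), and in the miR-379 to miR-410 array for 1 of 33. These 42 genes together held 2 counts, both from Mir467a-1 in pup 1, and none was detected. The 42 comprise 10 Mir467, 4 Mir669, 6 Mir466 and 22 Gm-named genes. The other 65 genes held all remaining counts, and the 10 detected genes were among them. There were 84 distinct sequences among the 107 precursors: 38 genes fell into 15 groups of whole-length identical copies, and all 38 had 0 counts in both pups.

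Genes with some unshared sequence more often had counts than genes with none, but there was no further rise at the highest shares. At least 1 count in a pup was found for 1 of the 42 genes with no window of their own, for 9 of the 36 with a share above 0 and under 50%, and for 16 of the 29 with 50% or more. Shares in the 10 detected genes ran from 36.2 to 96.9%, and the median of the other 97 was 22.2%. Of the 65 genes with some window of their own, 40 had no count in either pup. Of 29 genes with an unshared share of at least 50%, 8 were detected, and of the 36 with a smaller share above 0, 2 were detected, Mir467d (39.1%) and Mir297a-2 (36.2%). Of 14 genes at 80% or more, Mir669e (96.9%) and Mir669c (83.0%) were detected. At 0 in both pups were 7 of these 14, namely Mir669b (89.5%), Mir466h (96.7%), Gm23542, Gm23578, Gm22678, Gm26073 and Gm24342. For these 7 a count of 0 allows up to 0.933 CPM in pup 1 and 0.820 CPM in pup 2 of uniquely placed reads.

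Shares of the abundant genes varied, from 39.1% in Mir467d, with 14 sharing genes, to 83.0% in Mir669c, with 37. Mir467e had 59.1% of its windows to itself and shared the rest with 14 other genes, all in the array. Mir467c stood at 63.2% with 16 sharing genes, Mir669o at 58.7% with 38, and Mir669l at 53.2% with 15, of which 12 lie in the array and 3 elsewhere. Mir669e shared windows with 1 gene only, outside the array. Where an abundant gene's mature RNA falls in a shared window its reads were not counted, so these levels are of uniquely placed reads and were not corrected for the shared part. Median GC content was 39.7% in the 10 detected precursors and 38.1% in the other 97.

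**Figure D3:**
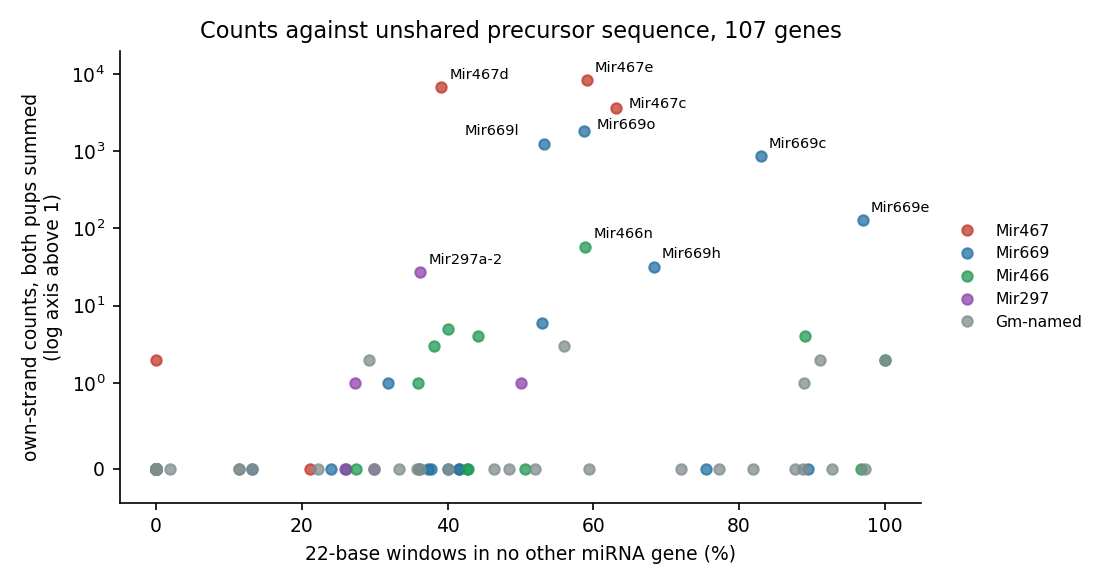
Own-strand counts summed over both pups (log axis above 1, linear to 0) against the share of 22-base windows found in no other annotated miRNA gene, for all 107 genes coloured by family. The 42 genes at 0% hold 2 counts in all, while the genes above 0% include all 10 that were detected, with Mir467e highest.

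Detected genes lay at the 2 ends of the array. The first 17 genes, up to Mir467c, included 4 detected genes and held 22.4% of the array's counts in pup 1 and 21.4% in pup 2. The last 30, from Mir467e on, included 6 detected genes and held 77.6% and 78.6%. Between the end of Mir467c and the start of Mir467e lay 31693 bases with 60 genes, 5 counts in each pup and no detected gene. Of these 60 genes, 40 had no unshared window. Of the other 20, which had some, 17 were at 0. Mir669a-3, Mir466b-3 and Gm26398 had at most 4 counts in a pup. The next widest stretch without a detected gene, between Mir669c and Mir466n, was 4336 bases.

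Genes of the same 4 families also lie outside the locus, and 10 of them were measured. These were Mir297-1 on chromosome 7, Mir466f-4 and Mir466i on chromosome 13, Mir466j on chromosome 10, Mir466k, Mir466q and Mir669n on chromosome 3, Mir467f on chromosome 11, Mir467g on chromosome 5 and Mir467h on chromosome 9. None was detected. Mir466q had 1 count in each pup and the other 9 had none. Their unshared shares ran from 40% (Mir297-1 and Mir467h) to 100% (Mir669n), so each had windows in which a read could have been placed uniquely among annotated miRNA genes.

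The counts of each gene in the 2 pups were compared, given the library totals, by an exact binomial test (two-sided), with Benjamini-Hochberg adjustment over all 413 genes with at least 10 counts summed. This test compares the 2 libraries and covers counting error only, so differences between these 2 pups include any technical difference between their libraries. Of the 10 array genes tested, 2 differed at an adjusted p under 0.05, beside 167 of all 413 genes (40.4%). Both were higher in pup 2, where 105 of all genes (25.4%) were higher and 62 (15.0%) lower. The share of array genes called was thus not above the background.

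Mir467e, at 1151 and 1257 CPM, was higher in pup 2 with an adjusted p of 0.000251 (exact binomial test). Mir669c, at 113 and 134 CPM, was higher by 0.24 on the log2 scale (exact 95% interval 0.04 to 0.44, adjusted p = 0.0453, exact binomial test), a call that was lost with TMM or DESeq2 scaling. With either of these scalings Mir467d and Mir467c were called lower in pup 2. With the totals, Mir467d had a log2 ratio of -0.06 (adjusted p = 0.143) and Mir467c of -0.11 (adjusted p = 0.0614) by the same exact test. The exact 95% intervals, not adjusted for the number of genes tested, were -0.133 to 0.005 for Mir467d and -0.203 to -0.013 for Mir467c. None of the 4 differed by 2-fold or more.

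For the other 6 the intervals included 0, as did that of Mir467d. Mir669e had the widest departure, 0.50 on the log2 scale (-0.03 to 1.05, adjusted p = 0.138, exact binomial test), at 15.2 and 21.6 CPM. The intervals of Mir466n (-0.88 to 0.71), Mir669h (-1.10 to 1.10) and Mir297a-2 (-1.50 to 0.90) were wide at these low counts, so small differences were not detectable at this depth. The median log2 ratio of the 10 genes was 0.04, and that of all 413 tested genes was also 0.04. TMM and DESeq2 scaling moved both medians to 0.00.

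**Figure D4:**
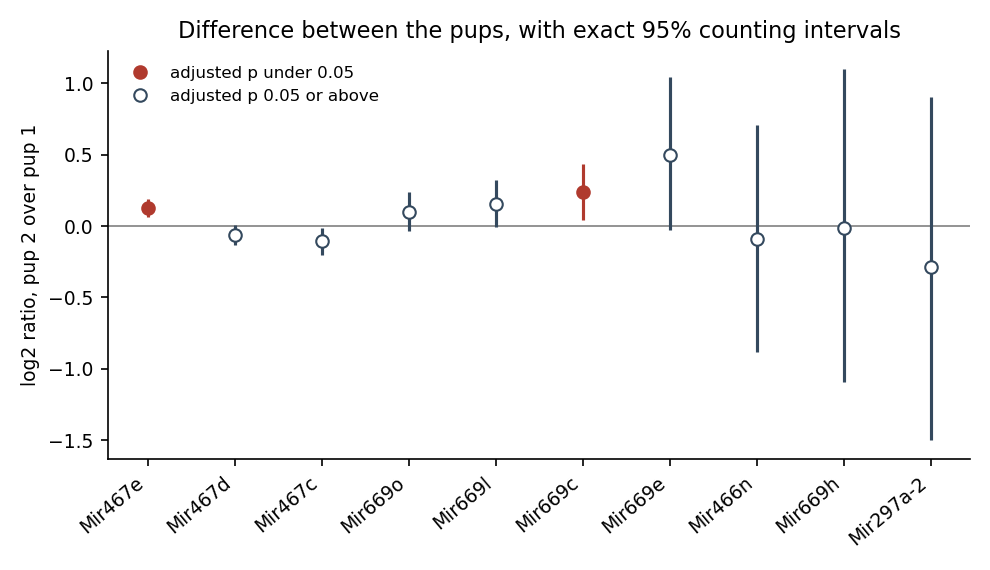
Log2 ratio of pup 2 over pup 1 for the 10 detected genes in order of level, with exact 95% counting intervals as bars; filled points have an adjusted p under 0.05. Mir467e (0.13) and Mir669c (0.24) are the filled points, and the intervals widen from the abundant genes on the left to the sparse ones on the right.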

How the data were processed

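Small RNA (under 30 bases, per the labels) of 2 single neural tubes was sequenced, 1 library each; the labels' replicate numbers 1 and 2 are pups 1 and 2. Per the deposited text, the authors counted reads for each miRNA gene (raw counts) on either, own and opposite strand, with mm10 and GENCODE M4; aligner and counter: not given in the sources used here. Read classes that name no gene stayed out of the totals; multimapping reads were 35.7 and 35.4% of reads. Own-strand counts were used and do not separate the 2 arms of a precursor.

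Computed here were CPM (own-strand count per 1000000), exact Clopper-Pearson intervals at 95%, log2 ratios with 0.5 added to each count, the binomial test (smaller tail doubled) and a limit of 1.96 SDs of the difference in mean log2(CPM + 1), pooled in 4 classes of abundance. edgeR could not be fitted to a contrast, because there is 1 group; edgeR gave TMM factors and DESeq2 size factors as alternative scalings. GENCODE M21 (same build) gave positions for 1894 of 1973 genes, and the other 79 had at most 2 counts. The 107 array genes are those placed within 10370000 to 10600000 of chromosome 2. Mature sequences were matched in RefSeq for 8 of the 10 family genes outside the locus. The test was checked on data simulated with counting error only, without further spread between libraries. All detected genes are named; genes named below detection, such as those at 0 with much unshared sequence, were chosen after their values were seen. Members, marker lists and settings were chosen with earlier results of these data known. Alternatives were other scalings, count minimums, pseudocounts, strand, spread, stretch lengths and leaving out each pup; the other form of the binomial test, and leaving out a pup from the detection counts, were added after seeing the data. Tests and tables were made in Python 3.11.15 with scipy 1.17.1, numpy 2.4.6 and pandas 2.3.3, figures with matplotlib 3.10.9, and scaling factors in R 4.3.3 with DESeq2 1.42.0 and edgeR 4.0.16.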

Additional observations from a re-analysis of the deposited data

How the results depend on the processing

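The array's share, 0.333% of own-strand counts, was 0.326% with either-strand counts and 0.407% without Mir10b in the total, both by construction. Leaving out a pup gave 0.329 to 0.338%. Detected genes were 16 with a minimum of 1 count, 10 with 5, 8 with 20, and 10 with either pup left out. Of the family genes outside the locus, 1 (Mir466q) passed a minimum of 1 count. Genes called different between the pups were 3 with TMM or DESeq2 scaling (1 higher, 2 lower), 3 with at least 50 counts summed (2 higher, 1 lower), 1 with at least 2 counts summed and 0 when a 2-fold difference was also asked; the other form of the exact test called 2. Mir467e was called under all 6 settings without a size limit (adjusted p 0.000189 to 0.0204, exact binomial test) and Mir669c under 3 (0.0345 to 0.113). The median log2 ratio was -0.01 with at least 2 counts summed and 0.11 with at least 50. The share of the array's counts in genes with a shared stretch was 99.98%, also with stretches of 20 and 18 bases, and 99.96 to 100% with a pup left out. No paired analysis was possible because there is 1 group. With 2 pups, leaving one out cannot give a test, and moves a mean by less than its SD by construction. Among the 10 detected genes, depth limits Mir466n, Mir669h and Mir297a-2 most.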
